A study of Homo sapiens with 11 samples.

Results

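The genes described here are 37 human genes of DNA replication and of S phase, the part of the cell cycle in which the genome is copied. They were taken as a list of gene symbols, and every exon probe set that carried exactly 1 of these symbols, or an older synonym of it, counted as a member probe set. All 37 genes were found among the 14579 genes that could be measured, with 820 listed probe sets, of which 727 of the 221964 probe sets used entered the gene values. CDC45 was reached through its older symbol. The series compared T-REx-293 cells depleted of Tat-SF1 with control cells; the line derives from HEK293, of human embryonic kidney, and allows expression to be induced with tetracycline. Tat-SF1, encoded by HTATSF1, is an RNA-binding protein of the U2 snRNP and was first described as a cofactor of the HIV protein Tat. All cells carried a plasmid for GFP and were given 2.5 µg/mL tetracycline for 72 h, and their total RNA was measured on Affymetrix Human Exon 1.0 ST arrays. The 4 constructs were an empty vector (2 arrays), an shRNA against GFP (3 arrays), and 2 shRNAs against Tat-SF1, named A and B (3 arrays each).

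The empty vector and the GFP shRNA form the control group of 5 arrays, and both Tat-SF1 shRNAs form the knockdown group of 6 arrays. Replicate 3 of the empty vector had failed quality control. The labels call the samples biological triplicates of 1 cell line and do not say how the replicates were grown, so the tests measure the spread between these samples. In RNA from whole cultures, fewer cells in S phase and less RNA of a gene per cell cannot be told apart.

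Before DNA can be copied, the origin recognition complex, CDC6 and CDT1 load the ring-shaped helicase made of MCM2 to MCM7 onto origins in G1. At the start of S phase CDC45 and the GINS complex bind the ring and activate it, primase and DNA polymerases copy the strands, and PCNA, the sliding clamp placed by replication factor C, holds the polymerases on the template. Many of these genes are transcribed in late G1 by E2F factors, whose cyclin E targets help to start S phase.

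Promoters of these genes, from 250 bases before to 50 after the start, were taken from RefSeq (GRCh38.p14) for 34 of the 37 genes. MCM4, MCM5 and CCNE2 had no entry. The letters searched, on both strands and with overlaps allowed, were TTTCCCGC, TTTCGCGC, TTTGCCGC and TTTGGCGC for E2F, CCAAT for NF-Y and TTTGAA for the CHR element of late cell cycle genes. Only the first listed promoter of each gene symbol was searched, and further starts of a gene were left out. An E2F match was present in 19 of the 34 promoters (55.9%), against 3.33% of the 27305 promoters searched. CCAAT was present in 18 (52.9%, against 35.7%) and TTTGAA in 1 (2.94%, against 15.4%). A match is a description of the letters and not a bound site, and no match means only that the searched letters were absent. The letters TTTGGCGGG were not searched. They stand unmarked in the stretches of CDT1, CDC6 and CDC45 below, and on the other strand in that of CHAF1A. Stretches from 200 bases before to 25 after the start are shown 5′ to 3′ on the gene's strand for 3 genes with an E2F match, whose differences below are among the lowest (CDT1 and MCM3) or the highest (CDC6), and for 2 without one whose groups did not overlap (CDC45 and CHAF1A). Capitals mark the E2F matches. The stretches are CDT1 at chr16:88803589-88803813 (plus strand), MCM3 at chr6:52284718-52284942 (minus strand), CDC6 at chr17:40287679-40287903 (plus strand), CDC45 at chr22:19479720-19479944 (plus strand), CHAF1A at chr19:4402440-4402664 (plus strand).
CDT1 promoter: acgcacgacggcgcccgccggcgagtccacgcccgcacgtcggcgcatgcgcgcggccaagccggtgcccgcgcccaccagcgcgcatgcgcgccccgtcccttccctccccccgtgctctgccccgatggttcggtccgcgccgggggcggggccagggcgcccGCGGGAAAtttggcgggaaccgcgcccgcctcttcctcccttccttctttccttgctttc
MCM3 promoter: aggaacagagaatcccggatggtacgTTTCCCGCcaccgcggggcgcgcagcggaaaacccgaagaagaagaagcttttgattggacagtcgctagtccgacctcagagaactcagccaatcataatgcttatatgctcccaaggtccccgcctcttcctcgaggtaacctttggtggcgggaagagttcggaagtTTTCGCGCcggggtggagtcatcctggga
CDC6 promoter: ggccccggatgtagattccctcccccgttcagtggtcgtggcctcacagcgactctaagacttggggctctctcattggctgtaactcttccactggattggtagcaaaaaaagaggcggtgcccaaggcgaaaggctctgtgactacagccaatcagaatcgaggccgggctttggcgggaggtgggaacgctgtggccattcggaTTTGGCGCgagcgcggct
CDC45 promoter: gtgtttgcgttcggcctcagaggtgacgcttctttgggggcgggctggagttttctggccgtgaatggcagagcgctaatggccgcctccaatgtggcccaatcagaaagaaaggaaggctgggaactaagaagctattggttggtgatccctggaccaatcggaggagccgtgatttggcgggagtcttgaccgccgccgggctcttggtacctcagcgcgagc
CHAF1A promoter: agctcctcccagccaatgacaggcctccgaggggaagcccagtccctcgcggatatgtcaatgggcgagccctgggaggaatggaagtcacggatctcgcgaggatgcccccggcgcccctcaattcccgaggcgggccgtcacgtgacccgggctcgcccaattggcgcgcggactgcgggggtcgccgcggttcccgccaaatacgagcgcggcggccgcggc
The matches begin 35 bases before the start in CDT1, 174 and 4 before it in MCM3, and at base 8 in CDC6.

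Values are on a log2 scale, and a gene value is the median of the gene's probe sets on an array. A difference is the mean of the knockdown arrays minus the mean of the control arrays unless stated otherwise, with its standard error (SE), and p-values come from limma with Benjamini-Hochberg adjustment over all 14579 genes. A gene passed where its adjusted p was under 0.05. Dim probe sets crowd at a log2 value of 7.91, so differences of dim genes may be compressed, and levels of different genes are not compared. Replicate 1 of shRNA B was the dimmest array and replicate 1 of the GFP shRNA the brightest, and these arrays had the most extreme scores, of opposite sign, on principal component 1 of all genes. HTATSF1 itself fell by 0.30 (SE 0.05, adjusted p = 0.0486), from 8.50 ± 0.12 (SD, n = 5) to 8.21 ± 0.06 (SD, n = 6), and it passed in 1 of the 11 fits that left out 1 array (adjusted p 0.0166 to 0.104). Of 10 genes named for the HEK293 line, 9 were measured, with a mean level of 9.00 to 9.21 on the control arrays and 8.90 to 9.02 on the knockdown arrays. Among them NEFM stayed near background, from 7.91 to 8.03, and PAX2 lay from 8.00 to 8.26. Every other measured gene of this list lay higher. The means of lists for blood cells, fibroblasts, endothelial cells and hepatocytes, with 1, 5, 4 and 3 of 5 genes measured, stayed between 7.91 and 7.99 on every array. The highest single gene of these lists, COL1A1 of the fibroblasts, ranged from 8.00 to 8.19, in part above NEFM and PAX2.

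Most replication genes had a lower mean in the knockdown cells, by small amounts. The difference was negative for 32 of the 37 genes, with a median of -0.07, while 67.1% of all genes measured had a negative difference, with a median of -0.02. Among the 7426 genes whose mean level lay in the range of the replication genes (8.19 to 10.4), 75.2% were negative, with a median of -0.05. The 19 genes with an E2F match in the promoter had a median difference of -0.11 (17 lower), and the 15 without a match -0.07 (12 lower). The genes without a match include CDC45, CHAF1A and MCM10, whose promoters hold the unsearched letters TTTGGCGGG on either strand. The split therefore sorts genes by the searched letters only, and no conclusion on E2F is drawn from it. None of the 37 genes passed, against 0.219% of all genes (32 genes) and 0.337% of those in this range of levels. The smallest adjusted p was 0.115, for MCM3. At an unadjusted p under 0.05, 12 of the 37 were lower, against 12.8% of all genes, and none was higher, against 2.39%. These 12 were MCM2, MCM3, MCM6, CDT1, CDC45, GINS2, PCNA, POLD1, E2F1, UHRF1, CHAF1A and CHAF1B. For 7 of them the difference became over 1.5 times smaller under another treatment of the probe sets or without some arrays, and it did not for the other 5, MCM2, CDC45, POLD1, UHRF1 and CHAF1A. For 3 of the 37, CDC45, POLD1 and CHAF1A, all 6 knockdown arrays lay below all 5 controls, against 2.02% of all genes and 3.11% of those in this range. For none did they lie above, against 0.219% of all genes. A p that missed the threshold does not show that the levels were the same.

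**Figure D1:**
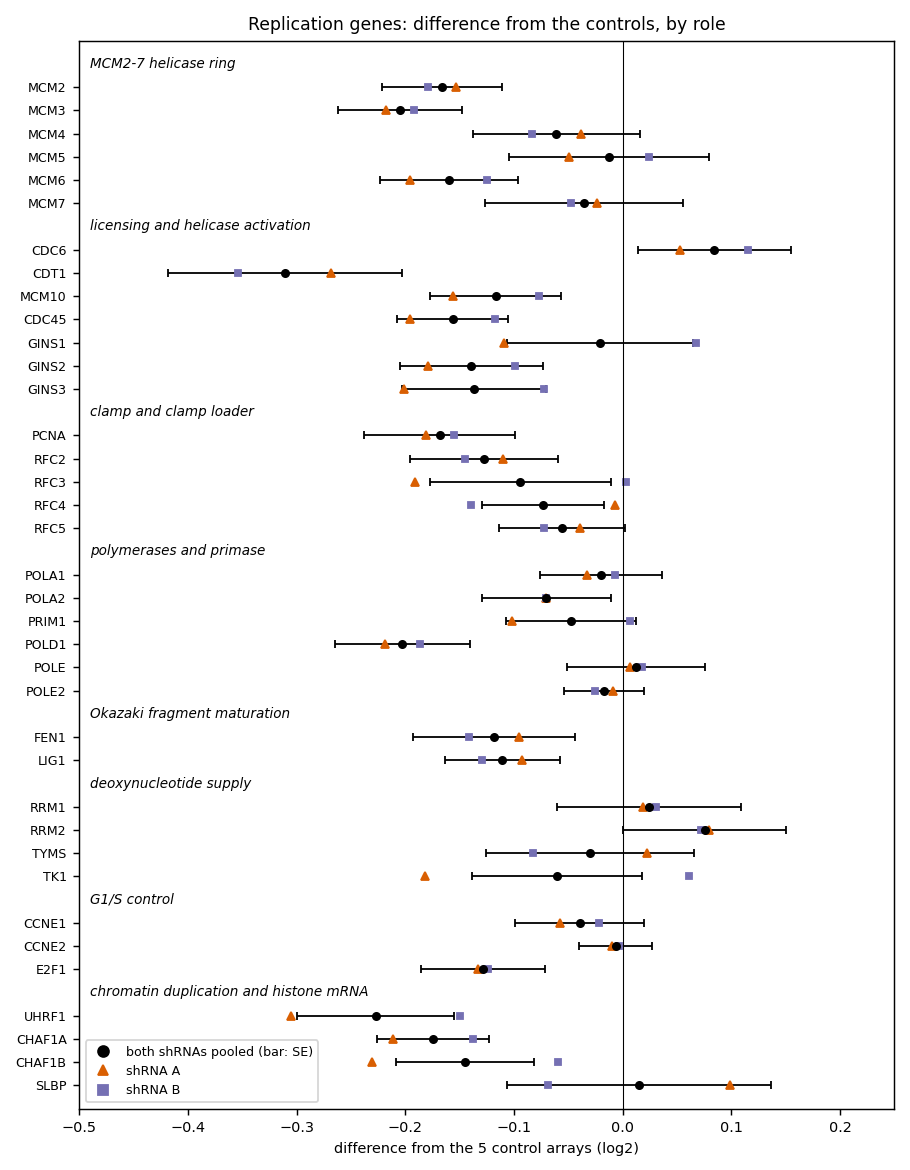
Difference from the mean of the 5 control arrays (log2, horizontal axis) for each of the 37 genes, grouped by role; black points are both shRNAs pooled with their SE, triangles shRNA A and squares shRNA B. The black points of 32 genes lie left of 0, from -0.31 for CDT1, and CDC6 lies farthest right at 0.08.

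All 6 genes of the helicase ring had a lower mean, with a median difference of -0.11, although after quantile normalization MCM5 was higher and 5 of 6 were lower. The differences ran from -0.20 for MCM3 and -0.17 for MCM2 to -0.04 for MCM7 and -0.01 for MCM5. MCM3 had gene values of 9.42 and 9.26 with the empty vector, 9.49, 9.38 and 9.45 with the GFP shRNA, 9.30, 9.11 and 9.14 with shRNA A, and 9.17, 9.23 and 9.24 with shRNA B. The 3 arrays with shRNA B lay below every control, and of the shRNA A arrays only replicate 1 reached above the lowest control. The difference of MCM3 was -0.20 (SE 0.06, adjusted p = 0.115). MCM2 had 9.54 ± 0.07 (SD, n = 5) on the control arrays against 9.38 ± 0.05 (SD, n = 6) on the knockdown arrays, a difference of -0.17 (SE 0.05, adjusted p = 0.171). MCM6 had 9.63 ± 0.09 (SD, n = 5) and 9.47 ± 0.10 (SD, n = 6), a difference of -0.16 (SE 0.06, adjusted p = 0.241). With the mean in place of the median of the probe sets, the differences of MCM3 and MCM6 were -0.12 and -0.09. For MCM2 and MCM6 the groups overlapped, since the highest knockdown array reached above the lowest control. MCM5 had the widest spread of the ring genes within the controls. MCM5 lay at 9.61 and 9.26 with the empty vector and at 9.68, 9.78 and 9.86 with the GFP shRNA, a range within the controls that takes in all 6 knockdown arrays (9.48 to 9.79).

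Among the genes that license origins and activate the helicase, 6 of 7 had a lower mean, with a median difference of -0.14, and 5 of 7 did after quantile normalization (median -0.12). CDT1, the loading factor that geminin inhibits, had the largest difference of the 37 genes over all 11 arrays. The gene value of CDT1 was 9.42 and 9.04 with the empty vector, 9.75, 9.33 and 9.07 with the GFP shRNA, 9.07, 9.17 and 8.93 with shRNA A, and 8.79, 9.09 and 9.03 with shRNA B. Replicate 1 of the GFP shRNA was the highest array and replicate 1 of shRNA B the lowest, and 2 controls lay inside the range of the knockdown arrays. The difference of CDT1 was -0.31 (SE 0.11, adjusted p = 0.184), and it had the 58th lowest difference of the 14579 genes. It was -0.20 without replicate 1 of the GFP shRNA and -0.16 without the dimmest and the brightest array, and UHRF1 then differed more in both cases (-0.22). CDC45, which joins the ring to form the active helicase, separated the groups. On the arrays, CDC45 measured 9.18 and 9.29 with the empty vector, 9.34, 9.23 and 9.29 with the GFP shRNA, 9.09, 9.01 and 9.10 with shRNA A, and 9.09, 9.17 and 9.17 with shRNA B. The highest knockdown array (9.17) stood below the lowest control (9.18), and the difference was -0.16 (SE 0.05, adjusted p = 0.170). The margin between the groups was therefore far smaller than the range inside either of them.

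The GINS subunits and MCM10, which help CDC45 onto the ring, gave smaller differences with more spread. GINS2 and GINS3 differed by -0.14 each (SE 0.07 for both, adjusted p = 0.328 and 0.345). The probe sets of GINS2 form 2 separate runs of numbers, with 8 and 2 probe sets and differences of -0.21 and -0.07, so more than 1 locus may be measured, and GINS2 with its dim probe sets kept differed by -0.07. For GINS2 and GINS3, the 3 shRNA A arrays lay below every control and the shRNA B arrays spread further, with SDs of 0.18 for GINS2 and 0.14 for GINS3 against 0.04 and 0.10 with shRNA A. MCM10 differed by -0.12 (SE 0.06, adjusted p = 0.378). In order of replicate, GINS1 lay at 8.88 and 8.84 with the empty vector, 9.28, 8.95 and 8.84 with the GFP shRNA, 8.96, 8.83 and 8.75 with shRNA A, and 8.87, 9.15 and 9.06 with shRNA B. Replicate 1 of the GFP shRNA stood apart among the controls, and the shRNA A arrays lay mostly below those of shRNA B. The difference of GINS1 was -0.02 (SE 0.09, adjusted p = 0.939), and it was 0.06 without that control array. CDC6, the ATPase that loads the ring together with CDT1, had the highest difference of the 37. CDC6 had gene values of 9.02 and 8.97 with the empty vector, 9.25, 9.28 and 9.36 with the GFP shRNA, 9.22, 9.20 and 9.27 with shRNA A, and 9.25, 9.28 and 9.34 with shRNA B. The empty vector arrays were the 2 lowest of all 11, and the GFP shRNA arrays overlapped those of both Tat-SF1 shRNAs. The difference of CDC6 was 0.08 (SE 0.07, adjusted p = 0.614), and with the GFP shRNA alone as control it was -0.04.

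**Figure D2:**
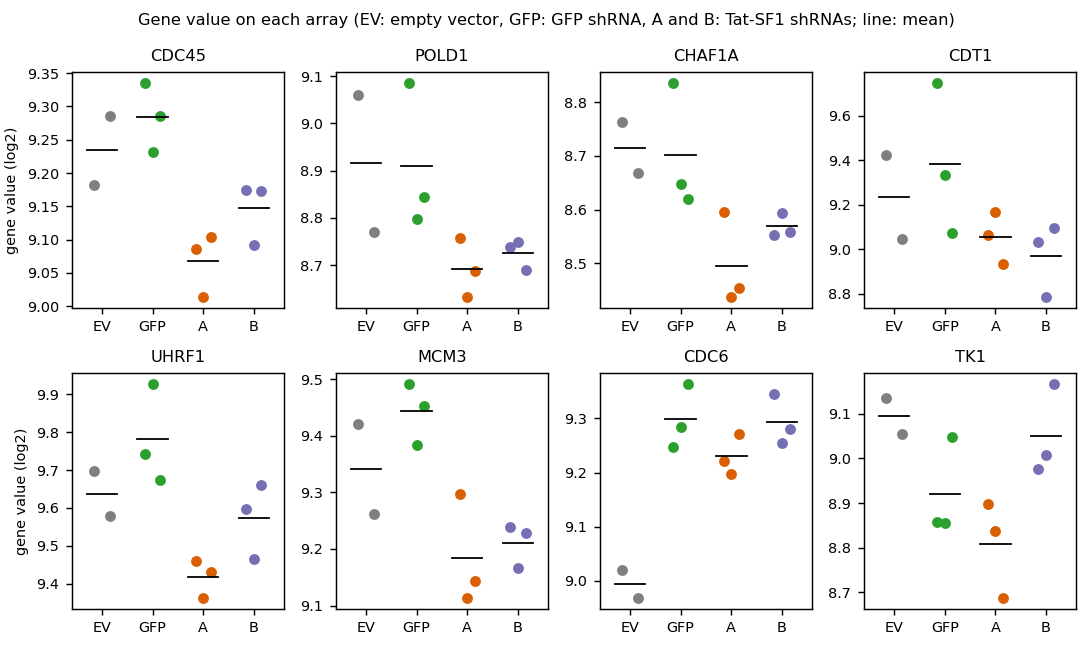
Gene value (log2, vertical axis, a separate scale in each panel) of 8 replication genes on each of the 11 arrays, by construct; lines are means. CDC45, POLD1 and CHAF1A have every knockdown array below every control, while for CDC6 the empty vector arrays (8.97 and 9.02) are the lowest.

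The sliding clamp and its loader had a lower mean in all 5 genes, also after quantile normalization, with a median difference of -0.09 that was -0.04 without the dimmest and the brightest array. PCNA had 9.70 ± 0.09 (SD, n = 5) on control arrays and 9.53 ± 0.13 (SD, n = 6) after knockdown, a difference of -0.17 (SE 0.07, adjusted p = 0.262), or -0.09 with the mean of its probe sets. The loader subunits RFC2, RFC3, RFC4 and RFC5 differed by -0.13, -0.09, -0.07 and -0.06, with adjusted p from 0.395 to 0.693. The gene value of RFC3 was 9.61 and 9.59 with the empty vector, 9.85, 9.73 and 9.67 with the GFP shRNA, 9.51, 9.50 and 9.48 with shRNA A, and 9.50, 9.94 and 9.63 with shRNA B. The 3 shRNA A arrays lay close together and below every control, whereas replicate 2 of shRNA B was the highest array of all. RFC3 was 9.50 ± 0.01 (SD, n = 3) with shRNA A and 9.69 ± 0.22 (SD, n = 3) with shRNA B.

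Of the 6 polymerase and primase genes, 5 had a lower mean, with a median difference of -0.03, and 3 did without the dimmest and the brightest array (median -0.01). POLD1 encodes the catalytic subunit of DNA polymerase delta, which copies the lagging strand. On the arrays, POLD1 measured 9.06 and 8.77 with the empty vector, 9.09, 8.80 and 8.84 with the GFP shRNA, 8.76, 8.63 and 8.69 with shRNA A, and 8.75, 8.69 and 8.74 with shRNA B. The lowest control, replicate 2 of the empty vector, stood at 8.77 and the highest knockdown array at 8.76. The difference was -0.20 (SE 0.06, adjusted p = 0.144), and 20 of the 21 probe sets used had a lower mean. Replicate 1 of each control construct was higher (9.06 and 9.09) than the other 3 controls (8.77 to 8.84). POLE, the catalytic subunit of polymerase epsilon on the leading strand, differed by 0.01 (SE 0.06, adjusted p = 0.952), and its partner POLE2 by -0.02 (SE 0.04, adjusted p = 0.868). The polymerase alpha and primase subunits POLA1, POLA2 and PRIM1 differed by -0.02, -0.07 and -0.05. FEN1, the flap nuclease, and LIG1, the ligase, which finish Okazaki fragments, differed by -0.12 (SE 0.07, adjusted p = 0.479) and -0.11 (SE 0.05, adjusted p = 0.333). The 13 probe sets of FEN1 come from 2 separate runs of numbers, which differed by -0.07 (7 probe sets) and -0.03 (6), so more than 1 locus may be measured under this symbol. LIG1 had a lower mean in 26 of its 27 probe sets.

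The enzymes that supply deoxynucleotides had no shared direction, with 2 of 4 lower and a median difference of -0.003, or 0.01 after quantile normalization. In order of replicate, RRM2 lay at 9.67 and 9.53 with the empty vector, 9.59, 9.72 and 9.74 with the GFP shRNA, 9.71, 9.62 and 9.86 with shRNA A, and 9.51, 9.91 and 9.75 with shRNA B. The knockdown arrays held both the lowest and the highest value of RRM2, the small subunit of ribonucleotide reductase. Its difference was 0.08 (SE 0.08, adjusted p = 0.680). A run of 15 probe sets of RRM2 differed by 0.15, and probe set 4006364, whose number lies apart, by -0.004, so this symbol too may cover more than 1 locus. RRM1 had gene values of 9.35 and 9.33 with the empty vector, 9.53, 9.38 and 9.56 with the GFP shRNA, 9.37, 9.59 and 9.39 with shRNA A, and 9.15, 9.65 and 9.59 with shRNA B. For RRM1, the large subunit, replicates 1 and 2 of shRNA B were the lowest and the highest array, and the difference was 0.02 (SE 0.08, adjusted p = 0.923). TYMS, thymidylate synthase, differed by -0.03 (SE 0.10, adjusted p = 0.914), with controls from 9.91 to 10.5 around knockdown arrays from 10.12 to 10.38. The gene value of TK1 was 9.13 and 9.05 with the empty vector, 8.86, 8.86 and 9.05 with the GFP shRNA, 8.90, 8.84 and 8.69 with shRNA A, and 9.01, 9.17 and 8.98 with shRNA B. Thymidine kinase TK1 had its lowest mean with shRNA A, and its arrays with shRNA B lay inside the range of the controls but for replicate 2. The pooled difference of TK1 was -0.06 (SE 0.08, adjusted p = 0.766).

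All 3 genes that control the G1/S step had a lower mean (median -0.04), but 1 of 3 did without the dimmest and the brightest array. E2F1 had 8.59 ± 0.13 (SD, n = 5) on control arrays and 8.46 ± 0.07 (SD, n = 6) after knockdown, a difference of -0.13 (SE 0.06, adjusted p = 0.304). When dim probe sets were kept, E2F1 differed by -0.01 (adjusted p = 0.983). The cyclin E genes CCNE1 and CCNE2, whose proteins activate CDK2, differed by -0.04 (SE 0.06, adjusted p = 0.793) and -0.01 (SE 0.03, adjusted p = 0.952).

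Of the 4 genes of chromatin duplication and histone mRNA, 3 had a lower mean, with a median difference of -0.16 over the 4. CHAF1A and CHAF1B are the large and middle subunits of chromatin assembly factor 1, which places histones on new DNA. On the arrays, CHAF1A measured 8.76 and 8.67 with the empty vector, 8.84, 8.65 and 8.62 with the GFP shRNA, 8.60, 8.44 and 8.45 with shRNA A, and 8.59, 8.56 and 8.55 with shRNA B. Every knockdown array lay below the lowest control, by a narrow margin. The difference of CHAF1A was -0.17 (SE 0.05, adjusted p = 0.130), and all 21 of its probe sets used had a lower mean. CHAF1B differed by -0.14 (SE 0.06, adjusted p = 0.295), with 9.03 ± 0.10 (SD, n = 5) in the controls, 8.80 ± 0.05 (SD, n = 3) with shRNA A and 8.97 ± 0.09 (SD, n = 3) with shRNA B. CHAF1B differed by -0.01 (adjusted p = 0.977) when the floor for probe sets was 0.5 higher, and by -0.06 with the mean of its probe sets. UHRF1, which brings the maintenance methyltransferase DNMT1 to newly copied DNA, had the second largest difference. In order of replicate, UHRF1 lay at 9.70 and 9.58 with the empty vector, 9.74, 9.93 and 9.67 with the GFP shRNA, 9.46, 9.36 and 9.43 with shRNA A, and 9.46, 9.66 and 9.60 with shRNA B. All shRNA A arrays lay below every control, and 2 shRNA B arrays reached the lowest control or higher. The difference of UHRF1 was -0.23 (SE 0.07, adjusted p = 0.160), with a lower mean in 28 of 29 probe sets. These form 2 separate runs of numbers, which differed by -0.15 and -0.18, so more than 1 locus may be measured. Each run alone differed less than MCM3 or POLD1 (-0.20 for both), so the rank of UHRF1 rests on taking the runs together. SLBP, which binds the stem-loop of histone mRNAs, differed by 0.02 (SE 0.12, adjusted p = 0.967) and was the most variable of the 37 within the knockdown, from 9.12 to 9.86.

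Each shRNA alone was also compared with the 5 controls, in a fit whose spread was estimated over all 11 arrays. With shRNA A, 31 of the 37 genes had a lower mean (65.9% of all genes), with a median of -0.10, none passed (0.00686% of all genes), and for 8 all 3 arrays lay below every control (6.33% of all genes). At an unadjusted p under 0.05, 12 were lower (8.99% of all genes). The 8 were CDC45, GINS2, GINS3, RFC3, POLD1, UHRF1, CHAF1A and CHAF1B. With shRNA B, 28 of the 37 had a lower mean (66% of all genes), with a median of -0.07, none passed (0.0686% of all genes), and for 5 all 3 arrays lay below every control (6.31% of all genes), namely MCM2, MCM3, CDC45, POLD1 and CHAF1A. At an unadjusted p under 0.05, 6 were lower (10.5% of all genes). Without replicate 1 of shRNA B this median was -0.03, and 22 of the 37 genes had a lower mean, a count given without the share of all genes. Both comparisons use the same controls, so their shared sign, lower for 26 genes and higher for 4, is given as a count only. The signs were opposite for the other 7.

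The difference of shRNA B from shRNA A uses no control array. All 3 shRNA B arrays, but only replicate 3 of shRNA A, carry a suffix in the array name, so the constructs and the suffix can hardly be told apart here. It was positive for 24 of the 37 genes (48.8% of all genes), with a median of 0.03, and none passed, as was so for all 14579 genes (0%). In limma, 638 genes had an unadjusted p under 0.05 (4.38%), 2 of the 37 among them, both higher with shRNA B. They were TK1, with 0.24 (SE 0.09, adjusted p = 0.998), and CHAF1B, with 0.17 (SE 0.08, adjusted p = 0.998). All 3 shRNA B arrays lay above the 3 shRNA A arrays for TK1, PRIM1, UHRF1 and CHAF1B (4.95% of all genes), and below them for RFC4 and TYMS (5.56%). Against replicate 3 of shRNA A alone, shRNA B was higher for 23 of the 37 genes (45.2% of all genes), with a median of 0.04, and by 0.36 for TK1 and 0.23 for CHAF1B.

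The 2 control constructs were also compared with each other. With the GFP shRNA, 27 of the 37 had a higher mean than with the empty vector (64.5% of all genes), with a median difference of 0.08, against 0.02 for all genes and 0.04 for genes in their range of levels (69.5% higher). None passed (0.00686% of all genes), and 3 were higher at an unadjusted p under 0.05 (3% of all genes), MCM5, MCM10 and CDC6. All 3 GFP shRNA arrays lay above both empty vector arrays for 9 genes (13.6% of all genes), namely these 3, RFC3, POLA1, POLA2, RRM1, CCNE1 and CCNE2. They lay below both for GINS2 and TK1 (5.22%). The largest of these differences were those of MCM5, 0.34 (SE 0.11, adjusted p = 0.948), and CDC6, 0.30 (SE 0.08, adjusted p = 0.948). Without replicate 1 of the GFP shRNA the median was 0.04. The mean of the knockdown arrays was below the GFP shRNA for 34 of the 37 genes (71.7% of all genes), with a median of -0.10 (-0.03 for all genes). It was below the empty vector for 24 (55.8% of all genes), with a median of -0.06 (-0.005 for all genes). For 12 genes, CDC6 and MCM5 among them, the knockdown mean lay between the means of both control constructs, a count given without the share of all genes.

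**Figure D3:**
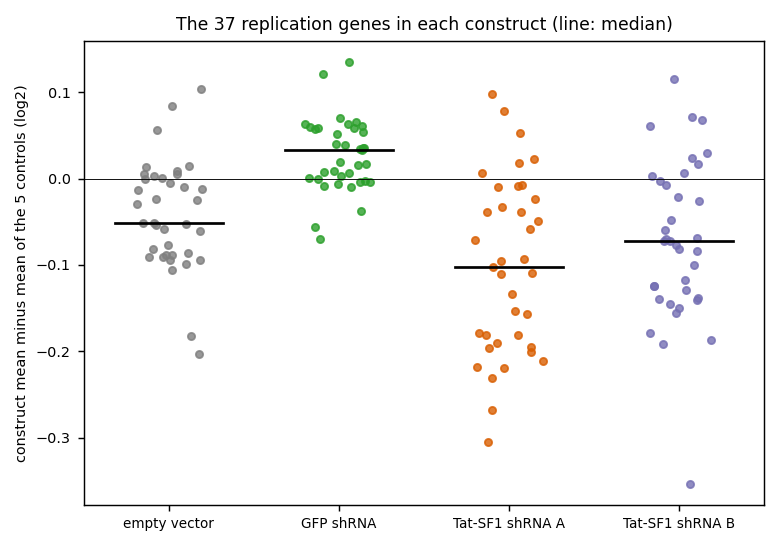
Mean of each construct minus the mean of the 5 controls (log2, vertical axis) for the 37 genes; each point is 1 gene and each line the median of its construct. The median is highest for the GFP shRNA, and that of the empty vector lies between it and those of both Tat-SF1 shRNAs.

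The arrays also differed in overall brightness, measured on each array as the mean of its 3000 brightest genes. It was 9.32 ± 0.04 (SD, n = 5) over the control arrays and 9.26 ± 0.04 (SD, n = 6) over those of the knockdown. The median deviation of the 37 genes from their control means was lowest on replicate 1 of shRNA B (-0.17) and replicate 2 of shRNA A (-0.15), which were also the 2 dimmest arrays, at 9.18 and 9.23. It was highest on replicate 1 of the GFP shRNA (0.05), the brightest array at 9.38. The median deviation ran from -0.07 to 0.05 on the control arrays and from -0.17 to -0.02 on the knockdown arrays, so the groups overlapped. After quantile normalization 29 of the 37 genes were lower, with a median of -0.05, against 9527 of all 14579 genes, with a median of -0.01. Without the dimmest and the brightest array 26 were lower, with a median of -0.07, against 8247 of all 14579 genes, with a median of -0.005. The suffix in the array name was carried by 4 of the 6 knockdown arrays, all but replicates 1 and 2 of shRNA A, and by no control. Those 2 arrays differed from the controls by a median of -0.13, with 30 genes lower, a value that holds no shRNA B array. Of all 14579 genes 9958 were lower there, with a median of -0.02. The part of brightness and of the suffix in these differences was not tested beyond these values.

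**Figure D4:**
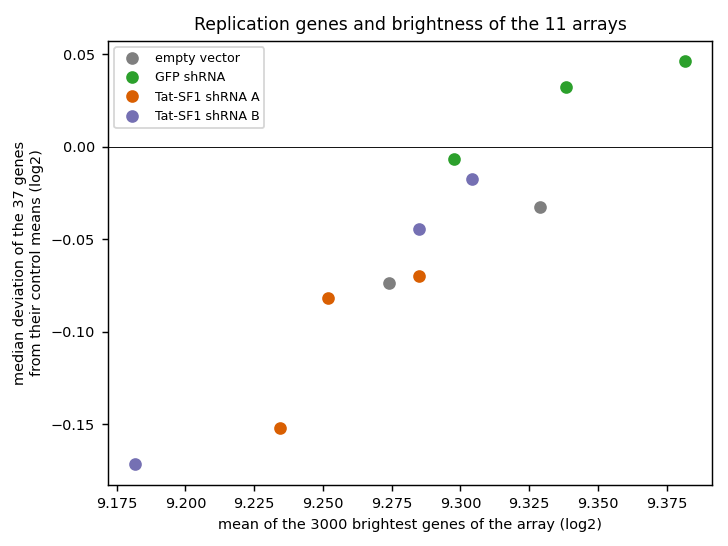
Median deviation of the 37 genes from their control means (log2, vertical axis) against the mean of the 3000 brightest genes (log2, horizontal axis) on each of the 11 arrays, coloured by construct. The dimmest array (9.18) has the lowest median deviation (-0.17) and the brightest (9.38) the highest (0.05).

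Other genes of the same processes were taken as a list of 66, with 65 measured. Of these 47 had a lower mean and 18 a higher one, with a median of -0.04 (-0.02 and 42 lower without the dimmest and the brightest array), and 1 passed (0.219% of all genes). The share that was lower, 72.3%, lies between that of all genes (67.1%) and that of genes in the range of levels of the 37 (75.2%). The gene that passed was RBBP4, a histone chaperone that is the small subunit of chromatin assembly factor 1 beside CHAF1A and CHAF1B. RBBP4 had gene values of 10.05 and 10.00 with the empty vector, 10.01, 10.08 and 10.12 with the GFP shRNA, 9.77, 9.81 and 9.71 with shRNA A, and 9.80, 9.77 and 9.71 with shRNA B. The highest knockdown array stood at 9.81 and the lowest control at 10.00, and RBBP4 fell by 0.29 (SE 0.05, adjusted p = 0.0487). It passed in 1 of the 11 fits that left out 1 array (adjusted p 0.0396 to 0.122), and with the mean of its probe sets the difference was -0.07. Its 24 probe sets carry numbers from 4 separate ranges, so more than 1 locus may be measured under this symbol. CHTF18, of an alternative clamp loader, and RPA2, of the single-strand binding complex, also had every knockdown array below every control, with differences of -0.18 (SE 0.05, adjusted p = 0.110) and -0.10 (SE 0.04, adjusted p = 0.235). With RBBP4 these were 3 of the 65, against 2.02% of all genes and 3.11% of those in the range of levels. Of 34 measured genes of mitosis and G2/M, 25 had a lower mean (73.5%), with a median of -0.04, and none passed. Without the dimmest and the brightest array 15 were lower, with a median of 0.01, against 8247 of all 14579 genes. The 8 measured genes of a G1 list were CCND1, CCND2, CCND3, CDK4, CDK6 and the CDK inhibitors CDKN1A, CDKN1B and CDKN2C. All 8, cyclins, kinases and inhibitors alike, had a lower mean (67.1% of all genes), with a median of -0.06. Without the dimmest and the brightest array 5 of 8 did. CCND1, cyclin D1, fell by 0.27 (SE 0.05, adjusted p = 0.0487). CCND1 passed in none of the 11 fits that left out 1 array (adjusted p 0.0526 to 0.122).

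The share of a gene's signal that comes from each probe set was followed by the splicing index, obtained by subtracting an array's gene value from the probe set's value there. An unequal change inside a gene moves it, whichever part changed. None of the 727 member probe sets passed, against 0.00315% of the 221964 probe sets (7), and 120 of them, or 16.5%, had an unadjusted p under 0.05 in limma, against 11.8%. The knockdown arrays lay wholly below the controls for 8 of them (0.676% of all) and wholly above for 11 (0.767% of all), in 13 of the genes. The smallest adjusted p, 0.0580, belonged to probe set 3407565, listed under UHRF1 as the 10th of 29 in order of number. Its log2 values were 9.11 and 8.94 with the empty vector, 9.35, 9.19 and 8.99 with the GFP shRNA, 9.46, 9.39 and 9.26 with shRNA A, and 9.43, 9.90 and 9.65 with shRNA B. It was thus higher on most knockdown arrays while the other 28 probe sets listed under UHRF1 had lower means, and its splicing index differed by 0.63 (SE 0.07). This probe set and 10 others (3407543 to 3407566) form a run of numbers listed under UHRF1, and the other 18 (3817702 to 3817726) a second run. The positions of both runs were not used here. The second run lies close in number to probe set 3817510 of CHAF1A, which like UHRF1 has its promoter on chromosome 19. The first run, which holds 3407565, lies far from these numbers, and whether it measures UHRF1 was not determined. The 2 runs differed by -0.15 and -0.18 between the groups.

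**Figure D5:**
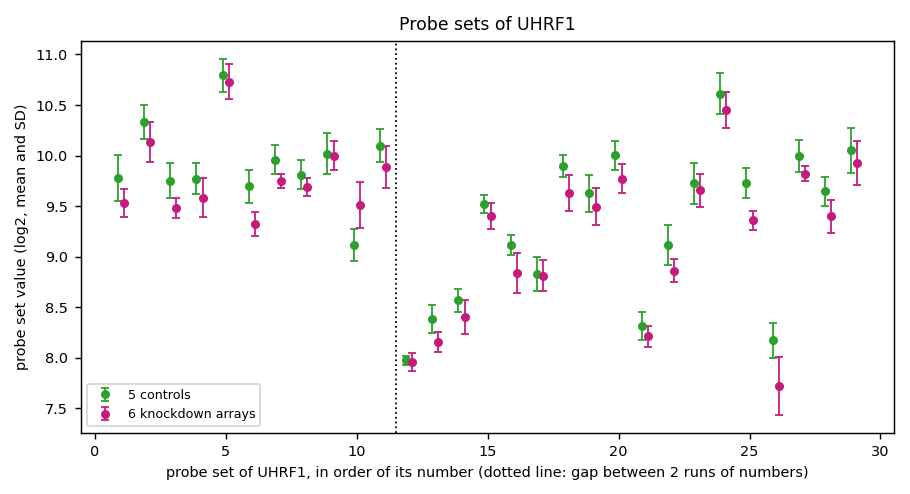
Value (log2, vertical axis) of each of the 29 probe sets listed under UHRF1 in order of its number (horizontal axis), as mean and SD of the 5 controls and the 6 knockdown arrays. The dotted line separates the 2 runs of numbers. The probe set in place 10 has a mean of 9.11 in the controls and 9.51 in the knockdown, and the means of the others are lower in the knockdown.

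The largest splicing index difference among probe sets without overlap, 0.65 (adjusted p = 0.132), was that of probe set 3097197 of MCM4. Its control values included 1 low array, replicate 2 of the empty vector at 8.27, while the other controls lay from 8.95 to 9.14 and the knockdown arrays from 9.11 to 9.79. After these came 3063696 of MCM7 (-0.34), 2577900 of MCM6 (0.29), 3433758 of RFC5 (-0.28), 3972127 of POLA1 (0.27), 3817510 of CHAF1A (-0.26) and 2957160 of MCM3 (0.23), with adjusted p from 0.0914 to 0.253. Probe set 2957160 of MCM3 stayed near background, at 8.05 in the controls and 8.08 in the knockdown, while the gene value was lower in the knockdown. MCM7 held 3 of the 8 lower probe sets, the most of any gene. Over all members, 536 of the 727 probe sets (73.7%) had a lower mean in the knockdown, against 61.5% of all probe sets used and 64.5% of those of genes in the same range of levels.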

How the data were processed

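Exon arrays of 11 samples were analysed; the series design has 12. The table deposited by the authors holds log2 values of 1399022 probe sets; the software, normalization and genome build behind it were not given in the sources used here. Per the values, array medians lie between 7.90 and 7.91. Gene symbols came from a table for this array and were updated through RefSeq synonyms (2876 of 19536 symbols). Probe sets with several symbols, without an estimate on every array or with a mean under 7.91 were left out, and a gene needed at least 4 probe sets. Differences were tested with limma 3.58.1 (lmFit and eBayes with a trend) in R 4.3.3, with 2 levels for the pooled comparison, 3 for single shRNAs and 4 for the controls, over all 11 arrays. The splicing index was tested in the same way over all probe sets used.

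The members, gene lists and tests were chosen with earlier results of these data known. Values on every array are given for members whose groups did not overlap, filled up to 6 by absolute difference, the 3 with the highest difference and the 3 that differed most between the shRNAs. Other replication genes are named if they passed or did not overlap, and probe sets as the 8 largest without overlap, 1 per gene. On simulated data for 14579 genes, limma recovered 79% of 200 genes changed by 0.25. It recovered 97.5% of those changed by 0.5 and 100% of those changed by 1. These shares were not obtained for the replication genes apart, so they do not give the power for them. The simulated noise was drawn for each gene on its own, without shared differences in array brightness or differences between the control constructs. Recovery on the measured arrays may therefore be lower than these shares. In the pooled limma fit of the measured data, CDT1 at -0.31 (SE 0.11, adjusted p = 0.184) and UHRF1 at -0.23 (SE 0.07, adjusted p = 0.160) did not pass. HTATSF1, at -0.30 (adjusted p = 0.0486), did. Same-numbered samples of different constructs did not deviate together (15 pairs, r from -0.15 to 0.27, median 0.04), so replicate numbers were not used as pairs. The alternatives tried were other probe set floors, means of probe sets, quantile normalization, no trend, a replicate block, the array name suffix and single arrays or controls left out; runs of probe set numbers and an older symbol of RRM2 were chosen after seeing the data.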

Additional observations from a re-analysis of the deposited data

Results flagged for a closer look

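Each gene's controls and each gene's knockdown arrays were searched for an array that stood apart from the rest of its group, by Dixon's test. This touched 4 of 74 groups (5.41%), and chance alone marks about 1 in 20. GINS1 had a control value of 9.28 on replicate 1 of the GFP shRNA, with the next control at 8.95. GINS2 stood at 9.03 on replicate 3 of shRNA B, with the next knockdown array at 8.77. RFC3 stood at 9.94 on replicate 2 of shRNA B, with the next at 9.63. RFC5 stood at 8.90 on replicate 1 of shRNA B, with the next at 9.08. The array of GINS1 was also the brightest and that of RFC5 the dimmest of all 11.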

How the results depend on the processing

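The median difference of the replication genes in the pooled comparison kept its sign under every alternative run, from -0.05 after quantile normalization to -0.10 with the GFP shRNA alone as control; leaving out single arrays gave -0.10 to -0.07. With the array name suffix as a factor, or without the arrays that carry it, the estimate rests on replicates 1 and 2 of shRNA A and no shRNA B array, and was -0.13. Of the 37 genes, 23 were negative under each of 7 settings for probe sets, scaling and samples, none was positive under each, and 14 took either sign. These counts are given without the share of all genes, so they are not read as a result about the replication genes. With a floor 0.5 higher, 36 members and 7240 genes were tested. Of these, 4 members passed, CDC45, CDT1, CHAF1A and LIG1, and 254 of all 7240 genes. CDT1 also passed there with shRNA A. With means of probe sets 1 of the 37 members passed, CHAF1A, and 137 of all 14579 genes. The median with shRNA B was -0.0155 without both arrays at the extremes of the first principal component (GFP shRNA replicate 1 and shRNA B replicate 1). The cause of these changes was not tested.

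The counts given next are of all genes that passed under a setting, not of genes that kept an earlier call. In the pooled comparison (32 genes) they were 19 without a floor, 89 without a trend and 10 with the replicate block. They were 2 with the GFP shRNA alone as control, and 0 without the end arrays, with the suffix as a factor, or without suffixed arrays (1708, 1282 and 1186 at an unadjusted p under 0.05 in limma). Leaving out single arrays gave 2 (without GFP shRNA replicate 3) to 47 (without empty vector replicate 2). With shRNA A (1 gene) the counts were 9 without a floor, 47 with the higher floor, 14 with means, 10 without a trend, and 0 after quantile normalization (1610 at an unadjusted p under 0.05 in limma), with the suffix (1230) and without suffixed arrays (1186), and single arrays gave 0 to 2. With shRNA B (10 genes) they were 1 without a floor, 88 with the higher floor, 4 with the replicate block, 1 with the GFP shRNA alone, 0 without the end arrays (1535), and 0 (without shRNA B replicate 1) to 9 over single arrays. Between the shRNAs single arrays gave 0 to 1. Between the controls (1 gene) the count was 0 without a floor, with the higher floor, without a trend, with the replicate block and without the end arrays (903, 318, 734, 637 and 608), and 0 to 2 over single arrays. The replicate block changed no call of a member.

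RRM2 turned to -0.0400 with the higher floor and -0.0285 with the probe sets of C2orf48, an older symbol of it. GINS1 turned to 0.000318 after quantile normalization and 0.0732 without the end arrays, and ranged from -0.0621 to 0.0598 over single arrays. With the GFP shRNA alone as control CDC6 turned to -0.0372, RRM1 to -0.0346 and TK1 to 0.00916. RRM1 ranged from -0.0141 to 0.0853 over single arrays. Among member probe sets 1 passed with the higher floor, 3407565, listed under UHRF1 (adjusted p = 0.0441), and 0 to 1 over single arrays. With only the largest run of probe set numbers, UHRF1 differed by -0.18 (adjusted p = 0.232). The number of arrays and the background level limit what can be measured.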
